A study of Gallus gallus with 6 samples.

Results

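Solute carrier (SLC) genes encode membrane proteins that move amino acids, sugars, organic acids, vitamins and ions, and their symbols carry a family number that groups them by sequence and mostly by substrate. The members described here are the mRNAs of the deposited table whose symbol starts with SLC, without the mitochondrial carriers of family SLC25. There were 28 of them among 1480 mRNAs, from 19 families, each listed as 1 transcript. Livers of Arbor Acres breeder roosters, a broiler breeder line, were compared at 2 ages without any treatment: 1-day-old chicks (immature livers) and adults of 40 weeks (mature livers), all deprived of feed for 12 hours. Each of the 3 immature libraries pooled the left livers of 4 chicks, which averages the spread between single chicks, whereas a single adult liver went into each of the 3 mature libraries. The table gives 1 value per group in FPKM (sequenced fragments scaled to transcript length and library size), with no value per library. No error and no test can therefore be given, and whether the libraries of the groups overlap cannot be seen. The number of reads behind a value is unknown. The paper reports more mapped reads, and a larger mapped share, for each mature library than for any immature one, so depth differed with age.

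Hepatocytes use SLC proteins on the blood side to take up amino acids, organic anions, phosphate and metals. They also release ketone bodies and move sugars and lactate across this membrane. A bird hatches with lipid-rich yolk as its main fuel and then moves to a grain diet rich in carbohydrate, so the liver of a newly hatched chick and that of an adult handle different nutrients. The symbol rule does not test where a protein sits. SLC11A1, SLC15A4, SLC2A6, SLC37A2, SLC46A3 and SLC9A7 are known, mostly from mammals, from membranes inside the cell, and SLC9A3R1 is a scaffold protein that binds transporters and carries nothing itself. The label of plasma membrane carriers therefore does not cover these 7 symbols.

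Of the 28 transcripts, 19 were listed higher and 9 lower in mature livers (67.9% higher, beside 54.9% of all 1480 mRNAs). Each difference is the mature less the immature value on log2(FPKM + 1), which shrinks the differences of poorly expressed transcripts. A difference of 1 is 2-fold in FPKM + 1, which is more than 2-fold as a plain ratio of FPKM. By this measure 12 members were higher by more than 1, where 35.9% of all mRNAs were. Another 6 were lower by more than 1, where 29.8% of all mRNAs were. These are 42.9 and 21.4% of the members, and with so few members the shares are near those of the table. The median difference of the members was 0.88 and that of all mRNAs 0.64. The table holds only transcripts that the authors had called differentially expressed, and every one with values above 0 in both groups differs at least 2-fold as a plain ratio, so a size over 2-fold is a property of the table and not a finding about these genes. When differences were centred on the table's median of 0.64, 4 members were higher and 9 lower past the same threshold, beside 222 higher and 668 lower among all mRNAs.

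**Figure D1:**
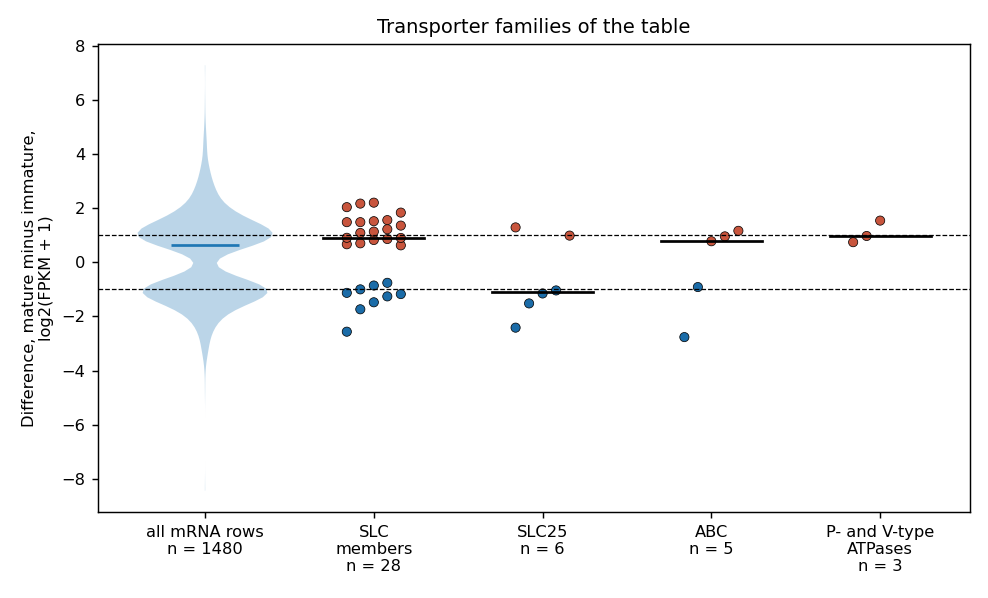
Differences between mature and immature livers on log2(FPKM + 1) for all 1480 mRNAs (violin, with its median) and for each listed transcript of 4 transporter families (points, red higher and blue lower in mature livers, with the family median as a black line). Dashed lines mark 1 and -1. The SLC members lie between -2.56 and 2.21, and 4 of the 6 SLC25 carriers lie below -1, as do 29.8% of all mRNAs.

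RNA of whole livers cannot tell fewer cells of a type from less RNA per cell. Markers of several cell types differed between the ages, where 54.9% of all mRNAs were higher in mature livers. The macrophage and Kupffer cell list had 5 of 10 genes in the table, all higher in mature livers, with a summed level of 125 FPKM in immature against 776 in mature livers. The T and natural killer cell list had 4 of 8 genes, all higher, with sums of 1.57 and 50.02 FPKM. Among proliferation genes 4 of 6 were listed, all lower, with sums of 85.0 and 6.57 FPKM. Among erythroid genes 2 of 16 were listed, both lower, with sums of 37.2 and 7.89 FPKM. Nearly all of the erythroid sums was TFRC, the transferrin receptor (35.7 and 7.33 FPKM), and most of the heterophil sums below was LYG2 (4.80 and 65.0 FPKM). Heterophil genes (3 of 5, sums of 6.51 and 73.9 FPKM) and a B cell gene (1 of 5) were listed higher, a stellate cell gene lower (1 of 7, 52.5 and 8.82 FPKM), 3 of 7 endothelial genes in both directions, and none of 6 cholangiocyte genes was listed. None of the listed markers was at 0 in either group. Of 13 hepatocyte genes only HPX, the heme-binding plasma protein hemopexin, was listed under the symbol sought (2521 and 7144 FPKM). Markers were sought by exact symbol, so all of these counts and sums miss genes listed under another name. Among those missed are PEPCK for hepatocyte PCK1 (14.6 and 32.9 FPKM) and HBE1 for erythroid HBE (3.99 and 0.0909 FPKM). Also missed were Ii for macrophage CD74 (a transcript at 22.4 and 548 FPKM) and IGJ for plasma cell JCHAIN (0.0143 and 9.12 FPKM). The part of these cell types in the differences of the SLC members was not tested.

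The monocarboxylate transporters of family SLC16 were split in direction. SLC16A1, which moves lactate, pyruvate and ketone bodies together with protons, was the most abundant member, with 103 FPKM in immature against 42.4 in mature livers (chromosome 26, 3552667 to 3567609; difference -1.26, 2.43-fold lower). SLC16A6, which releases ketone bodies from the liver in zebrafish, was listed at 0.344 and 4.54 FPKM (chromosome 18, 8078082 to 8086435; difference 2.04). Its plain ratio of 13.2-fold was the largest among the members, from a low starting level. SLC16A7, a lactate and pyruvate transporter of high affinity in mammals, was listed at 0.613 and 1.63 FPKM (difference 0.70). In mature livers SLC16A1 was still listed well above SLC16A6 and SLC16A7 on the FPKM scale.

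**Figure D2:**
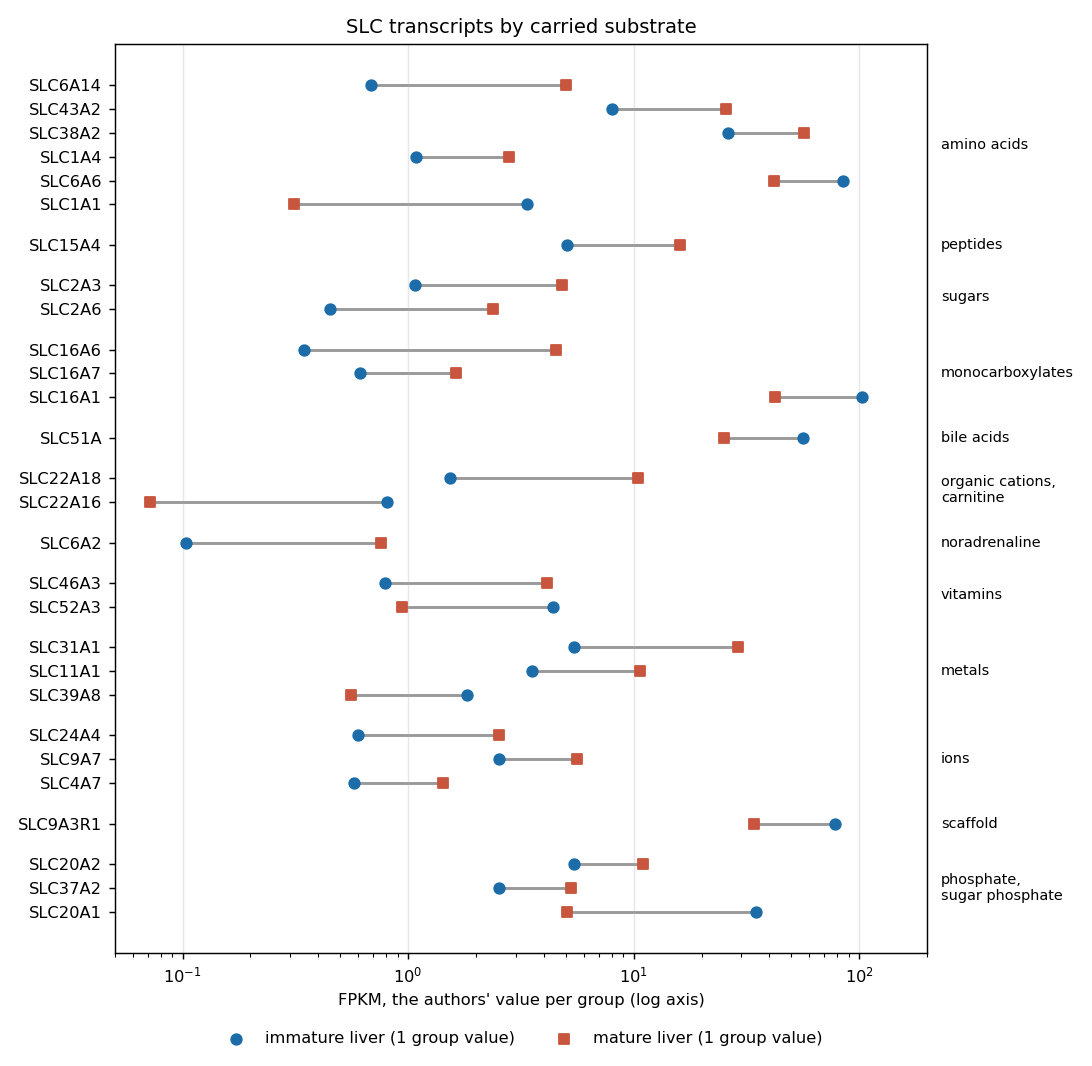
FPKM of the 28 SLC transcripts on a log axis, grouped by carried substrate, with blue circles for immature and red squares for mature livers, each the authors' 1 value per group. SLC16A1 has the highest value in immature livers (103 FPKM) and SLC38A2 the highest in mature livers (56.8 FPKM), and most transcripts lie below 10 FPKM.

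Of the 6 amino acid carriers, 4 were listed higher and 2 lower in mature livers, where 54.9% of all mRNAs were higher. SLC38A2, the sodium-coupled carrier of small neutral amino acids such as alanine and glutamine, had 26.2 FPKM in immature against 56.8 in mature livers (chromosome 1, 30927997 to 30943097; difference 1.09). SLC43A2, which moves branched-chain and other large neutral amino acids without sodium, had 7.99 and 25.6 FPKM (difference 1.56, 3.20-fold higher). SLC6A14, a concentrative carrier of neutral and cationic amino acids, had 0.685 and 5.04 FPKM (difference 1.84). SLC1A4, a carrier of alanine, serine and cysteine, had 1.08 and 2.79 FPKM and stayed under the threshold (difference 0.86). All of these 4 carry neutral amino acids.

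Among the members, the 2 amino acid carriers listed lower take acidic or sulfonic substrates. The arginine carrier cat-1, no member by its symbol, was lower too (0.995 and 0.187 FPKM). A split by substrate was not tested. SLC1A1, the high-affinity glutamate and aspartate carrier that also takes up cysteine, had 3.36 FPKM in immature against 0.311 in mature livers (chromosome Z, 26924308 to 26985411; difference -1.74, 10.8-fold lower). SLC6A6, the taurine carrier, had 84.4 and 41.7 FPKM (chromosome 12, 10946581 to 11004191). Taurine is conjugated to bile acids in the chicken liver. The difference of SLC6A6 was -0.998 on log2(FPKM + 1), just inside the threshold, with a plain ratio of 2.02-fold lower. SLC38A2, at 1.09, was the higher member closest to the threshold on its other side, and SLC20A2, at 0.91, the closest below it.

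Phosphate carriers of family SLC20, both of whose RefSeq symbols in chicken were in the table, went in opposite directions. SLC20A1, a sodium-phosphate cotransporter, had 34.8 FPKM in immature against 5.06 in mature livers (chromosome 22, 4002193 to 4025389). Its difference of -2.56, a 6.89-fold lower level, was the most negative of all members. SLC20A2, its paralog with the same substrate, had 5.41 and 11.0 FPKM (difference 0.91). The order of the paralogs was thus reversed between the ages: SLC20A1 was the higher one in immature livers and SLC20A2 in mature livers. SLC20A2 is listed with the same interval of chromosome 4 (33592674 to 33673846) as HGSNAT, a lysosomal acetyltransferase (9.37 and 19.1 FPKM). The libraries kept strand, but whether the counting used it is not stated, so reads of these overlapping genes may not have been told apart.

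The 2 sugar carriers were listed higher, as was SLC37A2 of the phosphate and sugar phosphate group, where 54.9% of all mRNAs were higher. SLC2A3, a facilitative glucose transporter, had 1.07 FPKM in immature against 4.80 in mature livers (difference 1.49, 4.49-fold higher). SLC2A6, another member of the glucose transporter family, had 0.448 and 2.39 FPKM (difference 1.23). SLC37A2, an exchanger of glucose 6-phosphate and phosphate in the endoplasmic reticulum, had 2.53 and 5.27 FPKM (difference 0.83). All were at low levels, and the other genes of these families, which include the main glucose transporter of hepatocytes, have no value here.

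The bile acid, organic cation and carnitine carriers came from families SLC51 and SLC22. Of their RefSeq symbols 1 of 3 and 2 of 13 were listed, beside 27 of 279 SLC symbols outside SLC25. SLC51A, a subunit of the transporter that lets bile acids out across the basolateral membrane, had 56.2 FPKM in immature against 25.2 in mature livers (chromosome 9, 14396152 to 14398919; difference -1.13, 2.23-fold lower). CYP7A1, the rate-limiting enzyme of bile acid synthesis, was lower as well, with 40.1 and 4.22 FPKM (difference -2.97). No symbol of families SLC10 and SLCO, which hold the known uptake carriers of bile acids and organic anions, is listed. RefSeq names 4 and 10 of them. Nor is any of the 10 SLC5, 13 SLC7, 8 SLC12 and 25 SLC35 symbols listed, so this absence is not particular to SLC10 and SLCO. SLC22A18, an organic cation transporter-like protein whose substrate is uncertain, had 1.54 and 10.5 FPKM (chromosome 5, 12527763 to 12579618; difference 2.17, 6.79-fold higher). SLC22A16, a carnitine carrier, had 0.810 and 0.0714 FPKM, and SLC6A2, the noradrenaline transporter of nerve endings, 0.103 and 0.755 FPKM. Both lay under 1 FPKM at both ages and within the threshold (differences -0.76 and 0.67), although their plain ratios were 11.3-fold lower and 7.31-fold higher.

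Metal carriers were led by copper. SLC31A1, the high-affinity copper importer, had 5.46 FPKM in immature against 28.9 in mature livers (chromosome 17, 1477211 to 1501357). Its difference of 2.21 was the largest among the members listed higher and corresponds to 5.28-fold. SLC39A8, which imports zinc and manganese, had 1.82 and 0.559 FPKM (difference -0.86). SLC11A1, which moves iron and manganese out of the phagosomes of macrophages, had 3.53 and 10.6 FPKM (chromosome 7, 22049009 to 22053608; difference 1.36). The macrophage markers CSF1R, a growth factor receptor, and C1QA, a complement component, were listed higher as well, at 13.2 and 51.5 FPKM and at 49.0 and 268 FPKM.

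The members grouped with vitamins and peptides were listed in both directions. SLC52A3, a riboflavin transporter, had 4.40 FPKM in immature against 0.942 in mature livers (chromosome 20, 10254336 to 10257547; difference -1.48, 4.68-fold lower). SLC46A3, a lysosomal protein placed with vitamins only because its family holds the folate transporter, had 0.789 and 4.14 FPKM (difference 1.52). SLC15A4, which carries histidine and small peptides out of lysosomes, had 5.06 and 16.0 FPKM (chromosome 15, 3750314 to 3771693; difference 1.49). All 6 members known from inner membranes were listed higher in mature livers, 4 of them past the threshold, where 54.9% of all mRNAs were higher and 35.9% past it. The summed macrophage markers, 125 and 776 FPKM, were also higher, and their part in this was not tested.

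The 3 ion carriers were all listed higher, from low levels, where 54.9% of all mRNAs were higher. SLC24A4, a potassium-dependent sodium-calcium exchanger, had 0.601 FPKM in immature against 2.52 in mature livers (difference 1.14). SLC9A7, a sodium-proton exchanger of the Golgi, had 2.52 and 5.59 FPKM (difference 0.90), and SLC4A7, a sodium bicarbonate cotransporter, 0.573 and 1.43 FPKM (difference 0.63). SLC9A3R1, the scaffold that is named after the exchanger it regulates, went the other way, with 78.3 and 34.2 FPKM (chromosome 18, 10711116 to 10718410; difference -1.17, 2.29-fold lower).

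Most of the abundant members were listed lower in mature livers and most of the others higher. The 5 transcripts with the highest mean, SLC16A1, SLC6A6, SLC9A3R1, SLC38A2 and SLC51A, were also those with a mean of at least 20 FPKM, and all but SLC38A2 were lower in mature livers. Among all mRNAs with a mean of at least 20 FPKM, 147 were higher and 155 lower. Of the 7 members with a mean of 5 to 20 FPKM, 6 were higher and SLC20A1 lower, and of the 16 members with a mean under 5 FPKM, 12 were higher and 4 lower (all mRNAs: 189 and 167, and 476 and 346). The summed level of the 28 transcripts was 433 FPKM in immature against 351 in mature livers. Of this sum SLC9A3R1, which is no carrier, made up 78.3 and 34.2 FPKM. The 5 highest held 80.3% of this sum in immature and 57.1% in mature livers, while the other 23 summed to 85.6 and 150.4 FPKM. The limits of 5 and 20 FPKM were chosen after the values had been seen, and the contrast was not tested.

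**Figure D3:**
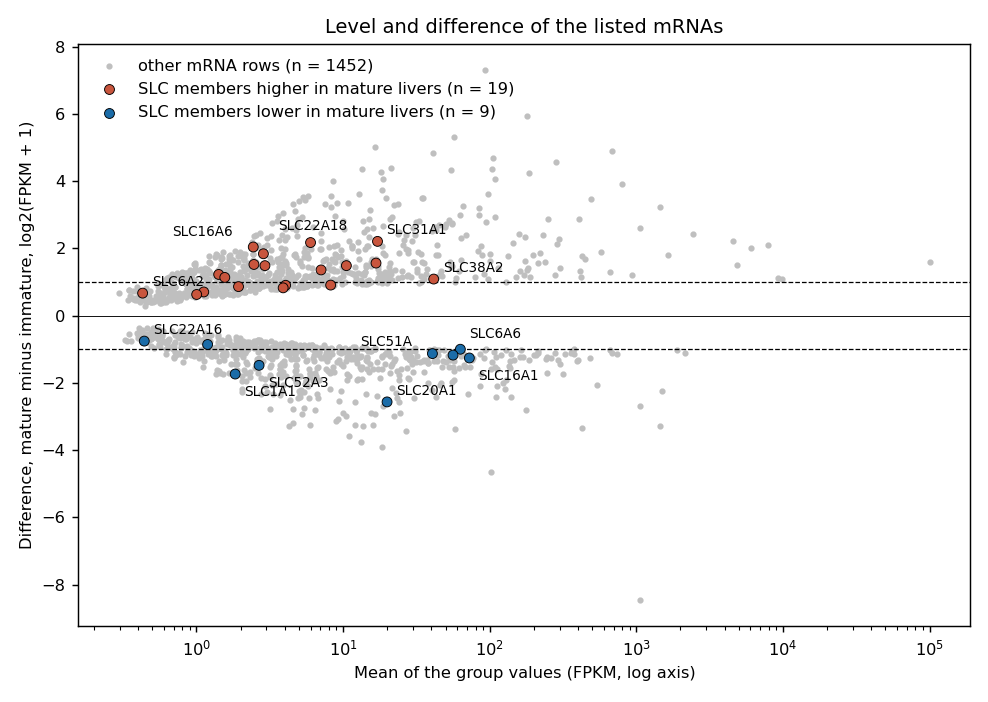
Difference on log2(FPKM + 1) against the mean of the group values (log axis) for the other mRNAs in grey, 19 SLC members higher in mature livers in red and 9 lower in blue, with dashed lines at 1 and -1. At the right end of the members SLC16A1, SLC6A6 and SLC51A lie below 0 and SLC38A2 at 1.09 above it.

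The members lie on 18 chromosomes. A listed lncRNA was found within 100 kb of 5 of the 28 loci (17.9%), where 13.8% of all mRNAs had one. In each of these 5 the nearest lncRNA lay within 10 kb, as in 7.03% of all mRNAs, and was listed in the direction of the carrier. Over all mRNAs with a listed lncRNA within 10 kb, 82.7% had the nearest in the same direction, so this is common in the table. The intergenic lncRNA TCONS_00014624 ended 102 bases from the SLC6A6 locus (chromosome 12, 10846743 to 10946478) and had 1.97 FPKM in immature against 0.0892 in mature livers. TCONS_00000783 lay 109 bases from SLC38A2 (chromosome 1, 30943207 to 30943925), with 0.943 and 2.06 FPKM. Whether a transcript so near to a gene is separate from it cannot be read from these values. The other 3 carriers with a near lncRNA were SLC1A1, SLC6A2 and SLC9A7.

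Another listed mRNA lay within 100 kb of 10 of the 28 loci (35.7%), where 53.9% of all mRNAs had one. Within 10 kb the order of the shares was the other way, 28.6% of the members and 23.9% of all mRNAs. In 9 of the 10 with a neighbour within 100 kb the nearest was listed in the direction of the carrier. Over all mRNAs with such a neighbour this held for 65.9%. Where the neighbour lay within 10 kb, it held for 7 of 8 members and for 71.2% of all such mRNAs. Among the 9 is SLC20A2 with HGSNAT, which share an interval and whose reads may not have been told apart. SLC20A1 lay 2022 bases from OGDH, a subunit of the oxoglutarate dehydrogenase complex, which had 20.3 FPKM in immature against 4.64 in mature livers. SLC51A lay 9479 bases from TFRC, the transferrin receptor, with 35.7 and 7.33 FPKM. SLC9A3R1 was the exception: its neighbour RAB37, a small GTPase gene at 1766 bases, was higher in mature livers (0.204 and 3.14 FPKM). The distances are those between the deposited intervals, which carry no build of their own, and the study's methods name Gallus gallus 5 for its alignment.

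**Figure D4:**
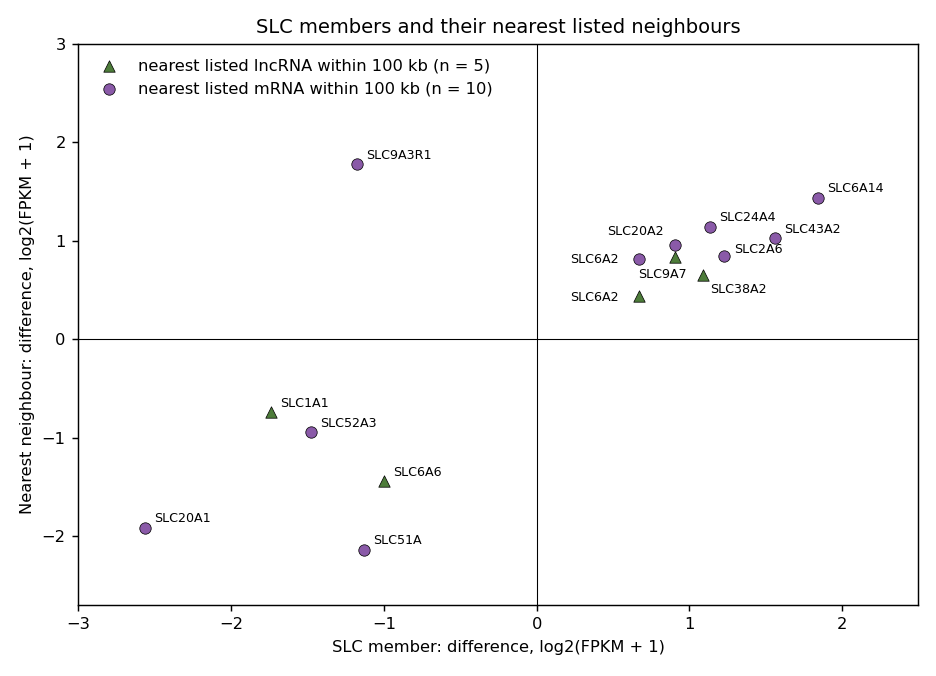
Difference on log2(FPKM + 1) of each SLC member (horizontal) and of its nearest listed lncRNA (green triangles, 5 members) or mRNA (purple circles, 10 members) within 100 kb (vertical), with the member's name at each point. Points in the lower left and upper right share a direction, and only SLC9A3R1 lies in the upper left.

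The gene ontology terms in the table name the plasma membrane for 13 members, of which 6 were higher and 7 lower in mature livers. For another 13 they do not, and of these 12 were higher and SLC22A16 lower. Of all mRNAs 54.9% were higher, and the difference between these sets of members was not tested. These terms are incomplete, since known carriers of the cell surface such as SLC6A14 and SLC4A7 are without one, and the terms of SLC11A1 and SLC9A3R1 were not used here.

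Among 43 enzymes, scaffolds, receptors and regulators that act with such carriers, 6 were listed, SLC9A3R1 among them. Past the threshold 2 of them were higher and 4 lower (all mRNAs: 35.9 and 29.8%). ASS1, which joins citrulline and aspartate on the way to arginine, had 9.78 FPKM in immature against 49.1 in mature livers (difference 2.22), and ARG2, which splits arginine, 4.16 and 0.469 FPKM (difference -1.81). The arginine carrier cat-1, which RefSeq gives as a synonym of SLC7A1 and which the symbol rule therefore did not take in, was listed at 0.995 and 0.187 FPKM (difference -0.75).

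The closest families by role are other membrane transporters. Of mitochondrial carriers with an SLC25 symbol 6 were listed, 4 of them lower past the threshold and 1 higher (all mRNAs: 29.8 and 35.9%). Their median difference was -1.09, beside 0.64 for all mRNAs. Their median immature level was 144 FPKM, beside 2.53 FPKM for the SLC members. Of genes whose symbol starts with ABC, the ATP-binding cassette transporters, 5 were listed, 3 higher and 2 lower. Of P-type and V-type ATPases 3 were listed, all higher, where 54.9% of all mRNAs were higher. Their levels were low, from 0 to 1.96 FPKM in immature and from 1.53 to 4.83 FPKM in mature livers. Only 1 of them was past the threshold. ABCG8, which exports sterols into bile, had 6.25 and 0.0667 FPKM (difference -2.76). ABCA1, the most abundant of the 5 ABC genes, went the other way, with 9.85 and 20.1 FPKM (difference 0.96). With group values alone no test of a difference between these families and the SLC members was possible. RefSeq (GRCg7b) names 279 protein-coding chicken genes with an SLC symbol outside family SLC25, of which 27 were listed here by symbol, and SLC2A3 had no match. Genes without a row have no value and are not counted as unchanged. A carrier listed under another name, as cat-1 was, is not among the members. Unlike cat-1, RHBG of family SLC42 (1.12 and 2.55 FPKM) and FLVCR1 of SLC49 (1.02 and 2.97 FPKM) were listed higher in mature livers. Such names were not sought as a set.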

How the data were processed

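RNA of 6 rooster liver libraries was depleted of ribosomal RNA and sequenced with strand-specific paired-end libraries. The authors deposited 2 tables of transcripts they had called differentially expressed, 1480 mRNAs and 622 lncRNAs, with FPKM per group and 1 value for each group. These are not the sets of the paper's results, which report more mRNAs and fewer lncRNAs. For lncRNAs the paper's discussion gives larger counts than its results, and these together equal the 622 deposited. Most mRNAs reported in the paper's results were lower in mature livers, whereas 812 of the deposited mRNAs were higher and 668 lower. The shares over all mRNAs given here are those of the deposited set. Tools listed by the submitters' processing notes, with no role given, are Bowtie2 2.0.6, Cuffdiff, Cufflinks, DESeq, FastQC and TopHat. The paper's methods instead quantify transcripts with StringTie and Ballgown, on the Gallus gallus 5 genome. The sources used here do not say which tools made the deposited FPKM. The deposited transcripts carry TCONS identifiers, whereas the lncRNAs named in the paper's results carry MSTRG identifiers. The tables also hold the authors' log2 fold changes, directions and p-values, which were not used.

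Members, markers and partner genes were read by symbol. Differences were taken on log2(FPKM + 1) with a threshold of 1 in size, and distances between deposited intervals with a limit of 100 kb, in Python 3.11.15 with pandas 2.3.3. The difference formula was checked with known differences added to the deposited immature values, which it returns by construction. This check covers no other step. No library values exist in the tables, so no limma fit, interval or permutation test was made. By rule, values were given for every member past the threshold, for the 5 of highest mean level and for substrate groups of 2 that differ in direction; the values of the other members were added after they had been seen. Members, gene lists and marker lists were chosen with earlier results of these data known. Alternatives were pseudocounts of 0.1 and 0, a minimum mean of 1 FPKM and centring on the table's median. Others were a threshold of 2 (4-fold in FPKM + 1), 1 row per symbol, and distances of 50 and 10 kb. Leaving out SLC9A3R1 or the members of inner membranes was added after seeing the data. No sequences were used here.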

Additional observations from a re-analysis of the deposited data

How the results depend on the processing

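With a pseudocount of 0.1 FPKM or with none, all 28 members passed the threshold, 19 higher and 9 lower, and the median difference of the members was 1.23 and 1.34 in place of 0.88. All mRNAs with values above 0 pass without a pseudocount, so these counts follow from the selection of the table. With a minimum mean of 1 FPKM the median was 0.91, and 26 members were left. Centred on the table's median, the members' median was 0.24, 4 were higher past the threshold, and SLC4A7 turned from 0.63 to -0.0141. The tables hold only selected transcripts, so their median is no measure of equal RNA. At a threshold of 2, which is 4-fold in FPKM + 1, 3 were higher and 1 lower, beside 140 and 79 of all mRNAs. Without SLC9A3R1, which is no carrier, the median was 0.90. Past the threshold of 1, 12 were then higher and 5 lower, beside 532 and 440 of all mRNAs. Without SLC9A3R1 and the members of inner membranes the median was 0.70, with 8 and 5 past it, beside 528 and 440. The members' main counts were the same with 1 row per symbol. The 5 members with a listed lncRNA were also found within 50 and 10 kb, where 9.39 and 7.03% of all mRNAs had one. For mRNA neighbours the members' share was 32.1% within 50 kb and 28.6% within 10 kb, beside 40.2 and 23.9% of all mRNAs. No paired analysis was possible because the tables hold 1 value per group, which also leaves no library to leave out. FPKM per group carry no counts, so the error of low values, such as the 9 immature and 5 mature values under 1 FPKM, is unknown.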
